A study of Mus musculus with 6 samples.

Results

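The chemokine and interleukin system of the mouse incisor was examined at the RNA level after loss of Arid1b, which encodes a subunit of the BAF chromatin remodelling complex. The genes were chosen by name. All genes of the expression table named as CC or CXC chemokines, their receptors, the atypical chemokine receptors, interleukins or interleukin receptors were taken, together with Cx3cl1 and Cx3cr1, and Il17rd was left out. Xcl1 was part of the same rule and had no row. This gave 85 of the 19270 genes in the table: 34 ligands, 42 receptor chains, 4 atypical chemokine receptors, 4 decoy receptors or antagonists, and the enzyme Il4i1, which carries an interleukin name and is an amino acid oxidase.

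Bulk RNA-seq libraries came from 3 control and 3 Arid1b mutant incisor samples. The mutants had the genotype Gli1-CreER;Arid1b fl/fl, where tamoxifen activates Cre in cells that express Gli1 and in their descendants. The labels give the controls as wild type, whereas the study's methods describe them as Arid1b fl/fl mice, and both groups received tamoxifen. Injection was at 1 month of age, and the mesenchyme at the proximal end of the incisor was taken at day 4. Gli1 marks epithelial as well as mesenchymal cells in the incisor, and the study reports that Arid1b was deleted in both.

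Chemokines are small secreted proteins that guide the movement of cells through G protein-coupled receptors, while atypical chemokine receptors bind the same ligands and remove them without classical signalling. Interleukins act through multi-chain receptors, most of which activate JAK-STAT kinases, whereas the IL-1 and IL-17 families act through adaptor proteins and NF-κB. In connective tissues, stromal cells are a well-known source of Cxcl12, and resident macrophages carry receptors such as Cx3cr1, so both mesenchymal and immune cells of the dissected tissue can contribute to these values.

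For each gene, the values available are the mean normalized read count of the controls and that of the mutants, as the authors computed them. No values per gene and library were used, so no difference below carries a test, a standard deviation or a p-value. The spread between libraries is unknown. A gene was counted as past the fold when its group means differed by over 1.5-fold either way. The 95% intervals given with ratios come from read numbers estimated from the means and cover counting error only, not the differences between animals. Lower RNA per cell and fewer cells of a type cannot be told apart in such tissue samples. The same values also cannot show whether a difference came from all 3 libraries of a group or from 1. Whether each library came from a single mouse is not given in the sources used here.

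Several facts of the series touch these genes. The libraries held between 37123643 and 49594469 estimated reads over the listed genes. The mean of Arid1b itself was 97.6 in controls and 38.0 in mutants, a ratio of 0.390. The means of Ddx3y, a Y-linked gene, were 0.0259 and 65.3, and those of Xist, the RNA of the inactive X chromosome, were 3368 and 813.8. Both genes differ between the sexes in mice, and the labels give no sex. The control mean of Ddx3y equalled the mean of the control library minima, so no reads were estimated for it in any control library. By these values no male tissue was seen in controls, and some was present in mutants, where Xist remained at 813.8. With group means alone, sex and genotype therefore cannot be told apart. Il13ra2 and Il1rapl1, both past the fold below, lie on the X chromosome. The 9 dental epithelium markers, among them Krt14, Amelx and Enam, were all over 1.5-fold higher in mutants, and their summed mean went from 1583.8 to 10282. The part of sex and of the amount of epithelium in the results below was not tested.

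Of the 85 genes, 17 had a mutant mean over 1.5-fold higher and 4 had one over 1.5-fold lower. Over all genes of the table the same counts were 7.37% higher and 5.80% lower. The median log2 ratio of mutant to control was 0.16 for the 85 genes and 0.0022 for all genes, and 57 of the 85 had the higher mean in mutants. Most of the genes past the fold were scarce. None of the 16 genes whose mean over both groups reached 10 was past the fold, beside a background of 2.15% higher and 0.912% lower among the 10311 genes of that level, and their median log2 ratio was -0.11. Of the 30 genes with a mean from 1 to 10, Il17re, Il12rb2 and Ccl8 were past the fold upward and Il3ra downward, beside 8.75% and 4.24% of all genes at that level. Of the 39 genes with a mean under 1, 14 were higher and 3 lower past the fold, beside 17.9% and 18.4%. In this scarce group 32 genes had the higher mean in mutants and 7 in controls, with a median log2 ratio of 0.39, compared with 2158 and 2368 genes and a median of -0.03 over all genes under 1. When the counting interval also had to lie beyond a ratio of 1, 14 of the 85 were higher and 3 lower, beside 6.57% and 4.82% of all genes.

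The scarce genes rest on few reads. In controls, for example, 94 estimated reads over the 3 libraries gave Il12rb2 a mean of 0.838. Every gene of the table had at least 10 estimated reads over both groups, so a gene near this limit could be listed because of the group in which it was higher. Il1a, Ccl11 and Il12b, 3 genes in all, had control means at or under the level of 3 reads per library, 0.103, and none of the 85 did so in mutants, where this level was 0.0923. Family genes outside the table are not analysed here.

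**Figure D1:**
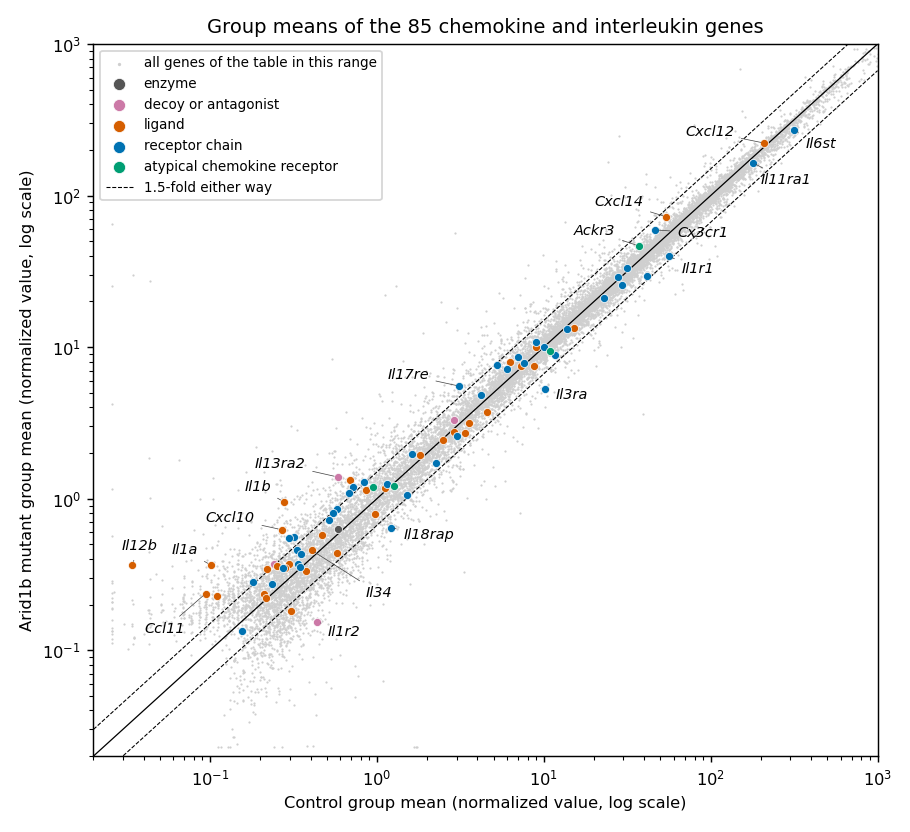
Mean normalized read count in the 3 Arid1b mutant libraries against that in the 3 control libraries, both on log scales, for the 85 genes coloured by class, with all genes that fall between the axis limits in grey. Solid and dashed lines mark equal means and a 1.5-fold difference. Genes with high means, such as Cxcl12 (209.8 and 221.7) and Il6st (317.0 and 269.9), lie between the dashed lines, while most genes outside them have means under 1.

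**Figure D2:**
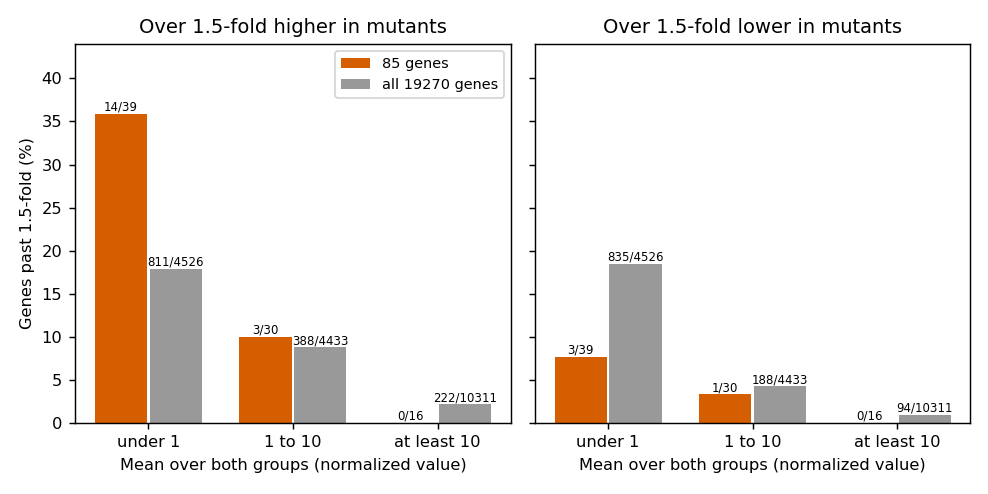
Percentage of genes over 1.5-fold higher (left) or lower (right) in mutants, by the mean over both groups, for the 85 genes (orange) and all 19270 genes (grey), with the counts above the bars. Among genes with a mean under 1, 14 of 39 were higher, beside 811 of 4526 of all genes, and 3 of 39 were lower, beside 835 of 4526.

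Levels of different genes were compared per kilobase of the longest annotated transcript. By this measure a few genes made up the upper end in controls. Il11ra1, the receptor chain for interleukin 11, had the highest value, 68.7 per kilobase, which placed it at percentile 96.9 of all genes. Cxcl12 followed at 37.3, Il6st at 36.5 and Cxcl14 at 29.7, all above percentile 90.2. The next gene, Ackr3, stood at 12.1. In mutants the order of the first 4 was Il11ra1 at 63.2, Cxcl14 at 39.6, Cxcl12 at 39.4 and Il6st at 31.1. Taking the union of all annotated exons as the length put Il11ra1 at 40.1 in controls, still the highest, and moved Cxcl12 to 25.7, below Cxcl14 at 29.7 and Il6st at 28.6. The order of these 3 in controls therefore depended on the length used. Il11ra1 overlaps several other genes, among them Galt on the same strand, and has a near-identical copy, Il11ra2, so its value is uncertain.

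**Figure D3:**
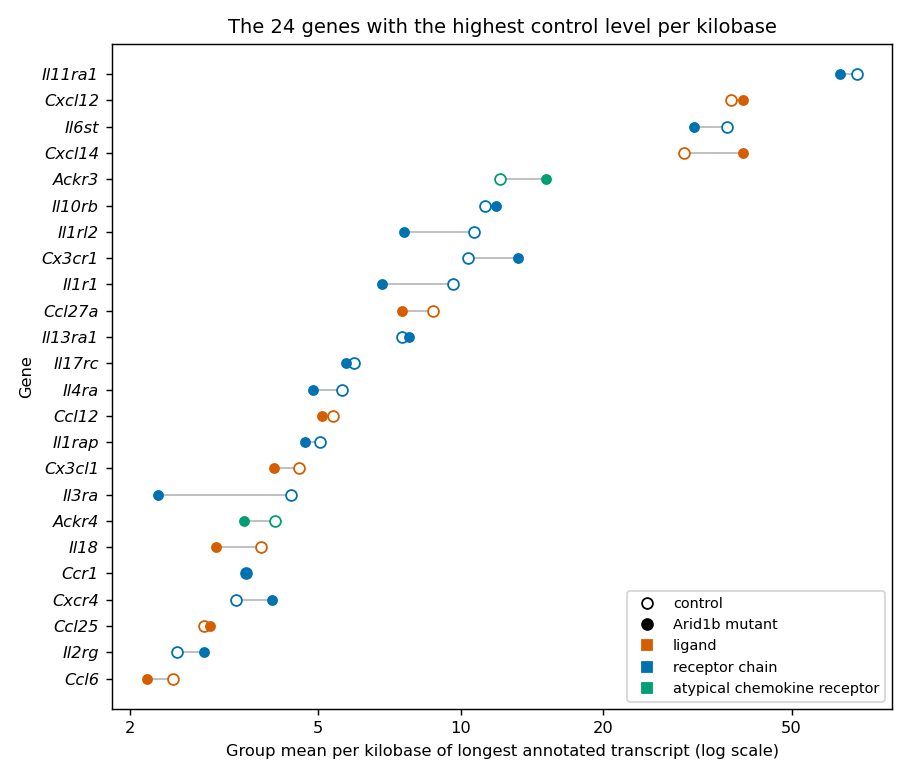
Group mean per kilobase of the longest annotated transcript, on a log scale, for the 24 genes with the highest control level, with open circles for controls and filled circles for mutants. Il11ra1, Cxcl12, Il6st and Cxcl14 lie between 29.7 and 68.7 in controls, apart from Ackr3 at 12.1 and the genes under it.

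Among the chemokine ligands, Cxcl12 and Cxcl14 had the highest levels per kilobase. Cxcl12, which binds Cxcr4 and Ackr3 and holds blood-forming and other cells near stromal cells, had means of 209.8 in controls and 221.7 in mutants, a ratio of 1.06 (counting interval 1.04 to 1.07). Cxcl14, a chemokine of stromal and epithelial cells, had 54.3 and 72.3, a ratio of 1.33 (1.29 to 1.38), within 1.5-fold. Cxcl16, the membrane-anchored ligand of Cxcr6, had 6.27 and 7.95, a ratio of 1.27. All 5 CXC ligands had the higher mean in mutants, as did 9731 of all 19270 genes. Only Cxcl10 was past the fold, at a mean over both groups under 1, where 17.9% of all genes were over 1.5-fold higher. Cxcl10 and Cxcl9 are interferon-induced ligands of Cxcr3 and lie side by side on chromosome 5, 18558 bases apart. Cxcl10 had 28 estimated reads in controls and 78 in mutants, with means of 0.268 and 0.624, a ratio of 2.33. The interval of its read ratio was 1.595 to 3.98. Cxcl9 had 22 and 26 reads and a ratio of 1.02. The Cxcl10 gene lies within Art3 on the opposite strand, and whether strand was used in counting is not given in the sources used here. Art3 had means of 3.34 and 3.14.

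The sequences before the transcription starts of Cxcl10 and Cxcl12 are shown because they set the scarce ligand past the fold beside the abundant one within it. They are the 250 bases before the start in RefSeq on GRCm38.p6, for Cxcl10 at chr5:92348890-92349139 on the minus strand and for Cxcl12 at chr6:117168285-117168534 on the plus strand, with matches to the κB core, read as GGGA and CC with any 4 bases between them on either strand, in capitals.
Cxcl10: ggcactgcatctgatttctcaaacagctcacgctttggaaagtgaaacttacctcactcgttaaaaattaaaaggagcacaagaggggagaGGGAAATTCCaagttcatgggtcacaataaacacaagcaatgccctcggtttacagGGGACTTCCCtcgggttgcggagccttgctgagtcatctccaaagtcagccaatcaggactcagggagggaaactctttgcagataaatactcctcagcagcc
Cxcl12: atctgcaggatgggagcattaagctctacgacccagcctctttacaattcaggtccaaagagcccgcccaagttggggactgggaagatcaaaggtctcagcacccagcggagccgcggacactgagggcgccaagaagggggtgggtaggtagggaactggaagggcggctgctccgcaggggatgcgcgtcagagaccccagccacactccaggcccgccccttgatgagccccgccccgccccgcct
The Cxcl10 window held the core at 2 places, 159 and 103 bases before the start, the second of which matched on both strands. The Cxcl12 window held none, and neither window held the letters TATAAA. On either strand, the core was found in 22.3% of 12719 such windows of listed genes and in 17 of the 68 windows available for the 85 genes, 25%. It was in 4 of the 15 windows of genes over 1.5-fold higher and in 13 of the other 53. These matches are letters in a window and describe no binding.

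The CX3C ligand Cx3cl1, also called fractalkine, had means of 15.1 in controls and 13.3 in mutants, a ratio of 0.882 (0.825 to 0.943). Its receptor is described below with the other receptors. The 17 CC ligands were split, with 10 higher and 7 lower means in mutants and a median log2 ratio of 0.07. Of the 17, 3 were past the fold upward and 1 downward, beside 7.37% and 5.80% of all genes. All of these but Ccl8 had a mean over both groups under 1, where the shares were 17.9% and 18.4%. Ccl8 had one from 1 to 10, where 8.75% of all genes were over 1.5-fold higher. By the longest transcript, Ccl27a, a ligand of skin-homing lymphocytes, had the highest level per kilobase of the CC ligands. By the exon union Ccl12, at 5.38, stood above Ccl27a at 3.66. Its means were 8.70 in controls and 7.49 in mutants, and it overlaps the end of Il11ra1 by 8 bases on the other strand. Ccl25, known from thymus and gut, had 7.32 and 7.53, but 204 of its bases overlap Elavl1, whose means were 108.7 and 109.1, on the opposite strand.

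A cluster of CC ligands on chromosome 11 gave mixed values. In the order of the chromosome, from 82035571 to 82116799, the ratios were 1.31 for Ccl2, 0.821 for Ccl7, 2.51 for Ccl11, 0.948 for Ccl12 and 1.90 for Ccl8. Ccl8 had means of 0.693 and 1.32, with 77 and 169 estimated reads, and an interval of 1.49 to 2.60. Ccl11, or eotaxin, which attracts eosinophils through Ccr3, had only 8 and 28 reads (interval 1.39 to 7.93). In the neighbouring cluster, Ccl5, Ccl9 and Ccl6 all had lower means in mutants, with ratios of 0.883, 0.818 and 0.883. Ccl9 and Ccl6 are ligands of Ccr1 and had control means of 4.55 and 3.55. By their means, neighbours thus did not share one direction in the first cluster and did in the second. The counting intervals of the lower genes Ccl7 (0.624 to 1.09) and Ccl12 (0.814 to 1.11) in the first included 1. So did those of Ccl5 (0.549 to 1.38) and Ccl6 (0.768 to 1.02) in the second, so these directions are uncertain.

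Of the remaining CC ligands, Ccl22 had means of 0.220 and 0.342, a ratio of 1.56 whose interval of 0.994 to 3.00 included 1. Ccl24, another eotaxin, had a ratio of 1.43 and Ccl28 one of 1.05. The Ccr7 ligands Ccl19, Ccl21a, Ccl21b and Ccl21d, which guide dendritic cells and lymphocytes, had 20 to 45 estimated reads in each group. Ccl21a had a ratio of 0.593 with an interval of 0.302 to 1.01, while Ccl21b and Ccl21d had ratios of 1.25 and 1.24. These 3 genes are near-identical copies among which reads could be split, so their opposite directions are uncertain.

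Over all genes, 7.37% were past the fold upward and 5.80% downward, and 9731 of 19270 had the higher mean in mutants. The 10 chemokine receptors included none past the fold, and 9 had the higher mean in mutants. Cx3cr1, the fractalkine receptor of macrophages and microglia, had the highest level per kilobase of them, with means of 46.6 in controls and 59.3 in mutants, a ratio of 1.27 (1.23 to 1.32). Several other listed genes, among them Wdr48 on the other strand and Gorasp1 on the same one, overlap its annotated span. Ccr2, the receptor by which inflammatory monocytes follow Ccl2, was the exception in direction, with 11.6 and 8.93 and a ratio of 0.769 (0.709 to 0.832). Among its neighbours on chromosome 9, the ratios were 1.37 for Cxcr6, 1.00 for Ccr1 and 1.46 for Ccr3. Ccr1, a receptor of monocytes and neutrophils, had nearly equal means of 9.97 and 9.98. Cxcr4, the signalling receptor of Cxcl12, had 6.05 and 7.20, a ratio of 1.19 (1.08 to 1.31). Cxcr2, which draws in neutrophils, had 29 and 42 estimated reads and a ratio of 1.27. Cxcr3 and Ccr7, receptors of lymphocytes, had ratios of 1.02 and 1.09 at means of 0.336 to 0.368.

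The 4 atypical receptors were within the fold, as were 16732 of all 19270 genes. Ackr3, which removes Cxcl12, had the highest level per kilobase, with means of 37.1 in controls and 46.5 in mutants, a ratio of 1.25 (1.204 to 1.302). For the axis formed by Cxcl12 and its 2 receptors, the ratios were therefore 1.06, 1.19 and 1.25. Ackr4, which takes up Ccl19, Ccl21 and Ccl25, had 10.9 and 9.39, a ratio of 0.858, and lies whole within Acad11 on the opposite strand, whose means were 28.4 and 27.7. Ackr1 and Ackr2 had ratios of 0.951 and 1.26 at means between 0.942 and 1.27.

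The IL-1 family, with 14 genes, held the largest ratios apart from Il12b, and they ran in both directions. Of these, 5 were over 1.5-fold higher and 2 over 1.5-fold lower, all with a mean over both groups under 1. Over all genes the shares were 7.37% and 5.80%, and over all genes of that level 17.9% and 18.4%. The agonists Il1a and Il1b, which start inflammatory responses through Il1r1, had ratios of 3.60 and 3.44. For Il1b the means were 0.277 and 0.953 and the estimated reads 29 and 121, with an interval of 2.47 to 5.79. For Il1a there were 9 reads in controls and 44 in mutants, with means of 0.101 and 0.364 and an interval of 2.10 to 10.2. Both genes thus were low in each group, and both had more reads in mutants. Annotated transcripts on the other strand overlap each of them, Gm14023 for Il1a and Il1bos for Il1b. The other ligands of the family had smaller differences. Il18, an inducer of interferon gamma, had means of 3.35 and 2.69 and a ratio of 0.803, and Il33, an alarmin of stromal and epithelial cells, had 0.466 and 0.578 and a ratio of 1.24.

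Il1a and Il1b are adjacent on chromosome 2, 54597 bases apart, and the windows before their starts are shown because the pair had the same direction and a similar ratio. These are chr2:129309973-129310222 for Il1a and chr2:129371140-129371389 for Il1b, both RefSeq, GRCm38.p6 and minus strand, with the letters TATAAA in capitals.
Il1a: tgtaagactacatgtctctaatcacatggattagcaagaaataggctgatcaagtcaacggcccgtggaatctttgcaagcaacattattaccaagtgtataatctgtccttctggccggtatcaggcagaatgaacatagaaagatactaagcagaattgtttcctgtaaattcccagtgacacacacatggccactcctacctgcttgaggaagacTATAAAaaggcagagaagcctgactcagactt
Il1b: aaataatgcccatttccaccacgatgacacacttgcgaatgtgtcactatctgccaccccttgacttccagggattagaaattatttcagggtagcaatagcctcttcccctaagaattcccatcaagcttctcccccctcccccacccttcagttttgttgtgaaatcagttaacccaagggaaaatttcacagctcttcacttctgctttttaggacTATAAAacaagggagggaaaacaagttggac
The letters began 32 bases before the start in Il1a and 31 in Il1b, and neither window held the κB core. TATAAA was present on either strand in 6.98% of all 12719 windows, in 14 of the 68 windows of the 85 genes (20.6%), in 4 of the 15 of genes over 1.5-fold higher, and in 10 of the other 53. Ccl8 and Ccl12, whose ratios were 1.90 and 0.948, also had it, 32 and 31 bases before the start.

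Of the receptors of the family, the decoy among them, 6 lie in a cluster on chromosome 1, from 40074079 to 40551705, all on the plus strand, and these did not share one direction. Il1r2, a decoy that binds IL-1 without signalling, had means of 0.439 and 0.154, with 48 and 17 estimated reads, a ratio of 0.352 and an interval of 0.170 to 0.559. Il1r1, the signalling receptor, had 56.0 and 39.7, a ratio of 0.709 (0.683 to 0.735), and Il1rl2, the receptor for IL-36, had 41.7 and 29.6, a ratio of 0.710 (0.680 to 0.741). Il1r1 and Il1rl2 were among the 10 genes with the highest control levels per kilobase of longest transcript, and 7352 bases separate them. Il1rl1, the IL-33 receptor, had means of 1.63 and 1.96, a log2 ratio of 0.26. The pair of IL-18 receptor chains diverged. Il18r1, which binds the ligand, had 34 and 70 reads and a ratio of 1.77 (1.203 to 2.85), whereas Il18rap, which joins it for signalling, had 137 and 81 reads and a ratio of 0.532 (0.396 to 0.699). Over the cluster the median log2 ratio was -0.50, with 4 lower and 2 higher means in mutants.

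Of the remaining genes of the family, the shared accessory chain Il1rap had 22.8 and 21.2, a ratio of 0.930. The antagonist Il1rn had 25 and 45 reads and a ratio of 1.55, with an interval of 0.964 to 2.73 that includes 1, and Il18bp, which neutralizes IL-18, had 2.89 and 3.30, a ratio of 1.14. Il1rapl1, better known from synapses, had 0.679 and 1.08, a ratio of 1.597 (1.22 to 2.17).

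The receptors around the shared chain gp130 included the 2 interleukin receptors with the highest levels per kilobase, Il11ra1 and Il6st. Of the 6 genes of this family, 5 had the lower mean in mutants, as did 9539 of all 19270 genes. None was past the fold, beside 7.37% of all genes upward and 5.80% downward. Il6st, which encodes gp130 itself, had 317.0 in controls and 269.9 in mutants, a ratio of 0.852 (0.839 to 0.864). Il11ra1 had 179.1 and 164.6, a ratio of 0.919 (0.902 to 0.937). The ligand Il11, which has been tied to bone and craniofacial growth, had 64 and 54 reads and a ratio of 0.762. Its interval of 0.514 to 1.10 included 1. Il27ra had 2.27 and 1.71, a ratio of 0.754. The duplicate receptor Il11ra2 had 15 and 14 reads, with an interval of 0.372 to 1.85 that also included 1. The exception was Il6ra, the interleukin 6 receptor, with 6.99 and 8.63 and a ratio of 1.23 (1.13 to 1.35). The family median was -0.23 on the log2 scale.

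In the IL-17 family, Il17re differed most. This chain pairs with Il17ra in the receptor for IL-17C and is known from epithelial cells. Its means were 3.12 in controls and 5.53 in mutants, a ratio of 1.77 (1.56 to 2.02), the largest upward ratio among genes with a control mean of at least 1. Il17rc, the chain for IL-17A and IL-17F, is its neighbour on chromosome 6 and had 13.7 and 13.2, a ratio of 0.963. The shared chain Il17ra had 8.97 and 10.8, a ratio of 1.21 (1.11 to 1.31), and the IL-25 receptor Il17rb had 57 and 91 reads and a ratio of 1.41. The ligand Il17d had 2.50 and 2.45.

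The family of the common gamma chain and of IL-4 and IL-13 gave 3 of 10 genes past the fold, all higher in mutants. All 3 had a mean over both groups under 1, where 17.9% of all genes were over 1.5-fold higher. Il13ra2, a decoy that takes up IL-13, had means of 0.582 and 1.39, with 64 and 178 reads, a ratio of 2.39 and an interval of 1.85 to 3.36. The signalling chains for the same ligand were within 1.5-fold, with 27.9 and 28.9 for Il13ra1, a ratio of 1.04, and 29.6 and 25.6 for Il4ra, a ratio of 0.867. Il7r, the receptor for the lymphocyte survival factor interleukin 7, had 31 and 69 reads and a ratio of 1.86 (1.28 to 3.14). Il2ra had 18 and 33 reads and a ratio of 1.54, with an interval of 0.895 to 3.09. The common gamma chain Il2rg had 4.20 and 4.799, a ratio of 1.14. Il2rb, Il15 and Il21r had ratios of 1.23, 1.07 and 0.865. Il15ra, which presents IL-15 to neighbouring cells, had 1.505 and 1.06, a ratio of 0.706 (0.555 to 0.882).

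All 9 genes of the IL-10 and IL-12 families had the higher mean in mutants, as did 9731 of all 19270 genes. Of the 9, 4 were past the fold, 3 of them at a mean under 1 and Il12rb2 at 1 to 10, levels at which 17.9% and 8.75% of all genes were over 1.5-fold higher. Il10, an anti-inflammatory cytokine, had 10 and 26 reads and a ratio of 2.06. Its receptor chain Il10ra had 5.21 and 7.64, a ratio of 1.47 (1.33 to 1.63), just inside the fold, while Il10rb, which is shared with other receptors and is widely expressed, had 31.4 and 33.1, a ratio of 1.06. Il20ra, a receptor chain for IL-20 and IL-24 known from epithelial tissues, had 0.717 and 1.19, a ratio of 1.65 (1.28 to 2.24), and its partner Il20rb had 1.15 and 1.25. In the IL-12 family, Il12b, the subunit shared by IL-12 and IL-23, had about 1 read in controls and 45 in mutants, with means of 0.0341 and 0.366. Its read ratio was 40.1 with an interval from 6.85 to 1621, so the size of the difference is poorly known. The mean does not show over how many mutant libraries these reads were spread. Il12rb2, the signalling chain for IL-12, had 0.838 and 1.30, a ratio of 1.55 (1.21 to 2.04), and overlaps Serbp1 on the other strand, whose means were 383.1 and 412.0. Next to it on chromosome 6, Il23r had 64 and 108 reads and a ratio of 1.48. Il12rb1 had a ratio of 1.16.

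Another 4 genes stood outside these families. Il3ra, the receptor chain for interleukin 3, which acts on mast cells, basophils and blood progenitors, had means of 10.1 in controls and 5.32 in mutants. Its ratio was 0.525 (0.476 to 0.576), the lowest among genes with a control mean of at least 1. Il16, a lymphocyte attractant, had 8.95 and 10.03, a ratio of 1.12. Il34, a ligand of the macrophage receptor Csf1r, was scarce, unlike Cxcl12 and Cxcl14, at percentile 13.4 of all genes per kilobase in controls. It had 44 and 56 reads, a ratio of 1.12 and an interval of 0.751 to 1.73. Il4i1 had a ratio of 1.08.

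**Figure D4:**
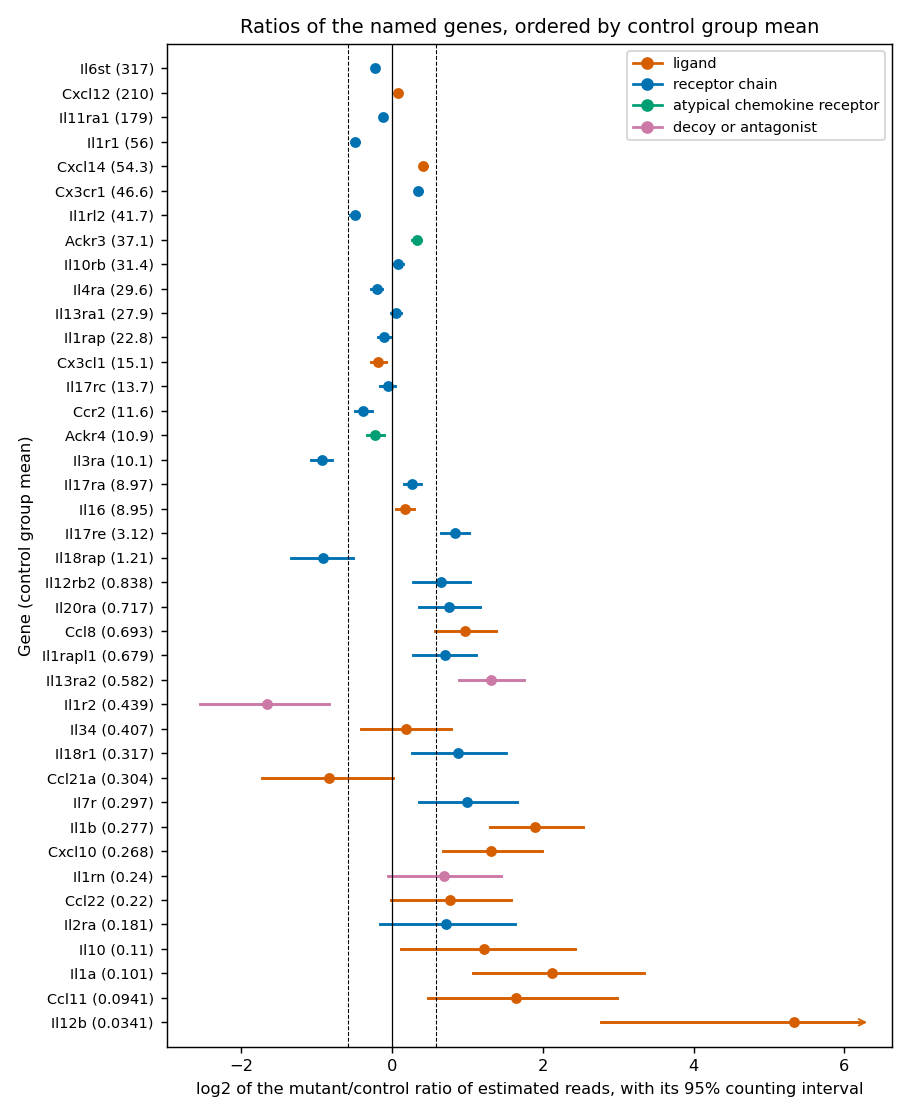
Log2 ratio of estimated reads, mutant over control, for genes whose mean reached 10 in either group, genes past 1.5-fold, and Il34, ordered by control mean, which is given in parentheses. Bars are 95% counting intervals and dashed lines mark 1.5-fold, and the interval of Il12b runs on to a ratio of 1621. The intervals widen down the plot as the means fall, from 0.839 to 0.864 for Il6st to 2.10 to 10.2 for Il1a.

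Genes that act with these ligands and receptors but carry other names were read from a separate list of 60, of which 58 were in the table. Of these, 1 was past the fold upward and none downward, beside 7.37% and 5.80% of all genes, and the median log2 ratio was 0.02. The gene past the fold was Lif, a gp130 cytokine, with means of 0.308 and 0.652 and a ratio of 2.12. Among 16 other cytokines and cytokine receptors, mostly of the gp130 and colony-stimulating factor families, the oncostatin M receptor Osmr had a ratio of 1.45 and Csf2rb, the signalling partner of Il3ra, one of 1.39, while the receptor chain Cntfr had 0.736. Csf1 and its receptor Csf1r had ratios of 1.14 and 1.15. The 17 JAK-STAT genes, from the kinases Jak1 and Jak2 to the STAT factors and their inhibitors, had a median log2 ratio of -0.02, with Socs3, a feedback inhibitor of gp130 signalling, highest at 1.42. Of the 9 NF-κB genes, 8 had the higher mean in mutants, as did 9731 of all 19270 genes. Ratios of the 9 ran up to 1.15 for Tnfaip3, and Nfkbia had 0.935. The 9 IL-1 and Toll-like receptor adaptors ran from 0.894 for Sigirr to 1.26 for Traf3ip2, an adaptor of IL-17 receptors, and the 7 partners of chemokine receptors from 0.722 for Dpp4 to 1.14 for Ccrl2. The list thus held one scarce gene past the fold, while the kinases, STAT and NF-κB genes were all within it.

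Markers of the cells that could hold these transcripts were summed in the same means. Ptprc, found on nearly all blood-derived immune cells, had 22.0 in controls and 26.4 in mutants, a ratio of 1.203. The 10 macrophage and monocyte markers summed to 514.1 and 542.4, none past the fold, with 8 of 10 means higher in mutants. Csf1r counts in this list as well as in the pathway list. The 8 neutrophil markers summed to 21.2 and 17.2, none past the fold, with 4 means higher and 4 lower in mutants. Of 5 mast cell markers, 4 were in the table, all with the higher mean in mutants, and their sum went from 1.61 to 2.44. The 2 past the fold, Mcpt4 and Tpsb2, had a mean over both groups under 1. At that level 17.9% of all genes were over 1.5-fold higher. The interval of Cpa3, 0.883 to 1.81, included 1. Of 8 T and NK cell markers only Cd3d and Cd4 were in the table, and their sum went from 3.73 to 5.57. Almost all of this sum was Cd4, so it describes that gene and not T and NK cells as a group. Cd4 was past the fold, with means of 3.62 and 5.46 and a ratio of 1.51. Among all genes with a mean from 1 to 10, 8.75% were over 1.5-fold higher. Cd3d had means of 0.103 and 0.109, near the level of 3 reads per library. Of 4 B cell markers, Cd79a and Cd79b were in the table, with a summed mean of 1.13 and 1.27. The part of these cells in the values of scarce genes such as Il7r, Il2ra and Ccl8 was not tested.

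Among the tissue's own cells, the 8 dental mesenchyme markers summed to 28184 and 23641, none past the fold, with 5 means lower in mutants. The 6 endothelial markers had a median log2 ratio of 0.06 and the 5 pericyte and smooth muscle markers one of -0.17, none past the fold. Of 5 glial markers 4 were in the table, 3 with lower means, and their median log2 ratio was -0.10. The other, S100b, was over 1.5-fold higher at 1.18 and 1.83, as were 8.75% of all genes with a mean from 1 to 10. The epithelium stood apart, with a median of 1.22 over its 9 markers and values from 1.72-fold for Epcam to 14.6-fold for Enam. Genes named above as known from epithelial cells, Il17re, Il20ra, Cxcl14 and Il33, had ratios of 1.77, 1.65, 1.33 and 1.24. The interval of Il33 was 0.868 to 1.84. They come from the descriptions above and not from a list fixed beforehand. Other genes of the 85 may also be expressed in epithelium. Of these, Il1rl2, Il18 and Ccl27a had ratios of 0.710, 0.803 and 0.861, and Ccl28 and Il20rb had 1.05 and 1.08. The part of the epithelium in any of these values was not tested.

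**Figure D5:**
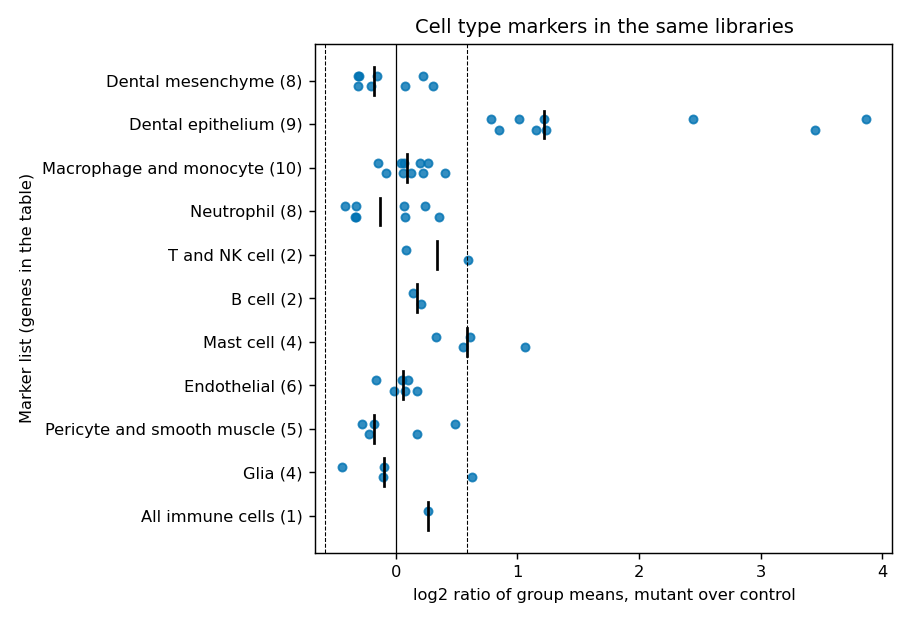
Log2 ratio of group means, mutant over control, for each marker gene (points) of 11 cell type lists, with the median of each list (black bar) and 1.5-fold lines (dashed). All 9 dental epithelium markers lie to the right of the right-hand dashed line, whereas the macrophage, neutrophil, endothelial and mesenchyme markers lie between the lines.

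Position in the genome was described for the 84 genes placed on GRCm38 with GENCODE, all except Ccl21d. With a gap of at most 500000 bases between neighbours, 41 of them fell into 13 clusters. In 4 of the clusters all means were higher in mutants, namely Il1a with Il1b, Cxcl9 with Cxcl10, Il12rb2 with Il23r, and Il2rg with Cxcr3. Each of these held only 2 genes, and 57 of the 85 genes had the higher mean in mutants. In 2 all were lower, Ccl5 with Ccl9 and Ccl6, and Il4ra with Il21r, and the other 7 held both directions. Within the clusters of one direction, the counting intervals of Cxcl9, Cxcr3, Ccl5, Ccl6 and Il21r included 1. The cluster on chromosome 4, from 41699989 to 42773993, held Il11ra1, Ccl27a, Ccl21b, Il11ra2, Ccl19 and Ccl21a, with 2 higher and 4 lower means and a median log2 ratio of -0.17. Reads can be shared among copies there, so the values of Il11ra1, Il11ra2 and the Ccl21 genes are uncertain.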

How the data were processed

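Incisor tissue was profiled by bulk RNA-seq in 3 controls and 3 Arid1b mutants. Groups came from the labels. Trimming, alignment to mm10 and comparison were done by the authors in Partek Flow, and the submitters' processing notes name TopHat2 2.0.8. The counting tool, annotation and strand setting are not given in the sources used here.

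The deposited table holds, per gene, a signal value for each group, the authors' mean of normalized read counts. Its p-values, FDR, ratios and fold changes are the authors' own comparison and were not used, nor was a second table that repeats a filtered subset. A per-library summary gave minima, means and upper quartiles, and 3 of its columns were not used. Upper quartiles were equal (44.57 to 44.58). The lowest group mean equalled the mean of the library minima, so a value was read as reads plus 1 times a factor per library, and reads were estimated from it. No SD or test per gene was possible.

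Ratios of the means were computed with Python 3.11.15, pandas 2.3.3 and scipy 1.17.1, and called past 1.5-fold. Exact (Clopper-Pearson) 95% intervals of the read ratio cover counting error only. The scripts were tested on simulated data. Lengths and positions came from GENCODE on GRCm38, which matched 18840 of 19270 genes and 84 of the 85. Promoters came from RefSeq and were found for 68 of the 85, with the first of several windows used for 11. No protein sequences were used. Values of some listed genes are counted in the totals and not reported here. Genes were named when a mean reached 10, when a gene past 1.5-fold had a mean of at least 1, or when it was Cxcl12, Cxcl14 or Il34. Others were named after their values were seen, 13 of them past the fold. The genes and all lists were chosen with earlier results of these data known. Alternatives were another fold, a filter on the mean, a pseudocount, subtraction of the lowest mean, centring and another gene length.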

Additional observations from a re-analysis of the deposited data

How the results depend on the processing

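The counts over 1.5-fold, 17 higher and 4 lower of 85, became 36 and 13 at 1.2-fold and 7 and 1 at 2-fold. They became 3 and 1 with a mean over both groups of at least 1, which leaves 46 genes, or with a pseudocount of 1, and 0 and 0 with a mean of at least 10, which leaves 16. The median log2 ratio of 0.16 became 0.041 with a mean of at least 1, 0.075 with the pseudocount and -0.11 with a mean of at least 10, a reversal. For the 58 pathway genes, 1 higher and 0 lower became 7 and 4 at 1.2-fold. The 1 higher gene, Lif, became 0 under the pseudocount and both filters, and the median of 0.02 became -0.051 with a mean of at least 10. Subtracting the lowest mean (18 and 4), centring (17 and 4) and requiring the counting interval beyond 1 (14 and 3, added after seeing the data) moved the counts of the 85 by less than 1.5 times. Over all genes, the share of calls that were higher went from 56.0% to 70.3% with a mean of at least 10 and 71.4% with the pseudocount. Of 40 single ratios, 12 fell outside their counting interval with the pseudocount, and that of Il12b went from 3.42 to 2.14 on the log2 scale with the lowest mean subtracted. Of 46 levels per kilobase, 9 moved with the exon union.

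No paired analysis was possible because the values per gene are group means and carry no replicate number. Leaving out a replicate could not be run for the same reason. Depth limits the 39 genes with a mean under 1, whose read ratios have wide counting intervals.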
